A study of Mus musculus with 22 samples.

Results

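Ly6d, Ly6e, Ly6a, Ly6g6c, Ly6g6e and Lypd3 are 6 genes of the Ly6/uPAR family, and were chosen by name from the 17541 genes counted in the mouse esophageal epithelium. Single epithelial cells were profiled by inDrop, a droplet method that counts RNA molecules by unique molecular identifiers (UMIs), in 6 control mice, 4 mice with eosinophilic esophagitis (EoE) and 3 mice with esophageal squamous cell carcinoma (ESCC). All 13 mice were C57BL6. Controls were untreated, with 3 young mice (C1, C2, C6; 3 to 4 months) and 3 old mice (C3, C4, C5; 18 to 20 months). EoE was induced with MC903, a vitamin D analog, and ovalbumin (OVA) over 32 days in 2 young mice (E9, E10; 6 to 8 weeks) and 2 old mice (E11, E12; 19 to 20 months). ESCC was induced with the carcinogen 4NQO at 100 µg/ml in the drinking water for 16 weeks followed by 8 weeks without it, in mice of 8 to 10 months (8M, 17F, 17M). These are models in which the agents themselves differ between groups, and age and agent cannot be told apart for ESCC, since no control has its age. The young EoE mice, at 6 to 8 weeks, had no control of their age either.

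Proteins of this family carry a compact fold held together by disulfide bonds, and most are fixed to the outer face of the cell membrane by a glycosylphosphatidylinositol (GPI) anchor, while a few, such as SLURP1, are secreted. In stratified squamous epithelium, basal cells that express keratin 5 (Krt5) divide, leave the basement membrane and differentiate into suprabasal and superficial cells, which express Krtdap. Ly6d and Lypd3 (also called C4.4A) are known as surface proteins of squamous epithelium, and Ly6a (Sca-1) and Ly6e as interferon-inducible family members, Ly6a being also a stem and progenitor marker in other tissues. Ly6g6c and Ly6g6e lie in the cluster of family genes within the major histocompatibility complex region.

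Ly6d (chromosome 15, 74762056 to 74763620, minus strand), Ly6e (chromosome 15, 74955051 to 74959905, plus strand) and Ly6a (chromosome 15, 74994877 to 74998031, minus strand) share 1 cluster, in which Ly6e and Ly6a are 34972 bases apart. Ly6g6c (chromosome 17, 35065388 to 35070050) and Ly6g6e (chromosome 17, 35076902 to 35078804) both lie on the plus strand, 6852 bases apart. Lypd3 lies alone on chromosome 7 (24636550 to 24641118, plus strand). Positions are those of GRCm38. On the opposite strand, Ly6g6c overlaps Mpig6b, Ly6g6e overlaps Ly6g6d and Lypd3 overlaps Gm26550. Whether counting used strand is not given in the sources used here, so reads in the overlaps cannot be assigned. Ly6g6d itself had 5 UMIs among control and ESCC cells. Family members can also resemble each other in sequence. In the last 300 bases of the longest transcript of each gene, where the method reads, at most 3.70% of the 31-base words (in Ly6g6c) were shared with a transcript of another gene.

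Upstream sequence is shown for Ly6g6c and Lypd3, both of which rose along the differentiation axis and then differed within its last stage, Ly6g6c in ESCC and Lypd3 in EoE. The bases come from RefSeq (GRCm38.p6), plus strand, and end just before the transcribed part. They were searched on both strands for TGANTCA (AP-1), CACCC (Krüppel-like factors) and TTCNNNGAA (STAT), and capitals mark a match.
Ly6g6c, chr17:35067075-35067324: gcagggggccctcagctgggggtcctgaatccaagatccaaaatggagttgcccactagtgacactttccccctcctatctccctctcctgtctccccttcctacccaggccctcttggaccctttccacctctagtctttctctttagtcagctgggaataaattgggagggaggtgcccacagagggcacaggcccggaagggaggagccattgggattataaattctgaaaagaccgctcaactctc
Lypd3, chr7:24636320-24636549: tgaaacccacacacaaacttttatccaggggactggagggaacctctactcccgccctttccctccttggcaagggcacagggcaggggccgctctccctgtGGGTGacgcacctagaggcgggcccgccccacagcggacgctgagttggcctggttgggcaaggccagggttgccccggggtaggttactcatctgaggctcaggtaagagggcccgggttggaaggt
None of the 3 motifs was found in the 250 bases of Ly6g6c. The 230 bases of Lypd3 held 1 CACCC on the minus strand, a motif present in 49.2% of 32851 promoter windows of that length, and neither other motif (6.34% and 6.48% of windows). The Ly6g6c window lies inside the longer GRCm38 gene given above, upstream of the RefSeq start.

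Cells with 250 to 3500 genes and 100 to 9500 UMIs were used, without those called non-epithelial. That call needed at least 3 UMIs on lists of immune, fibroblast, endothelial or muscle markers. These UMIs also had to outnumber those of the cell on a list of epithelial genes. Cells that were kept could still hold such UMIs, 1535 on the immune list in ESCC. The cells used were 1493 of controls, 143 of EoE and 1467 of ESCC, and 1500 cells per condition were deposited. Thus 9.6% of the deposited EoE cells were within the limits, and E11 contributed 11 cells. The median deposited cell of EoE had 117 genes and 138 UMIs, that of controls 665 and 990. Most EoE cells were thus under the minimum of genes. EoE levels and stage shares below describe only the EoE cells within the limits, unless all deposited cells are named. A control mouse gave 111043 to 427752 UMIs, an EoE mouse 6245 to 41909 and an ESCC mouse 1231048 to 2095454. Libraries shared cell barcodes appreciably only where they came from 1 mouse (12 to 52 barcodes a pair), and libraries of a mouse were summed. The libraries of C3 did not share barcodes to that degree and were summed as well. Between the libraries of 9 mice the median log2 ratio, as an absolute value, was 0.10 for Ly6d and Lypd3, 0.18 for Ly6e, 0.26 for Ly6a, 0.27 for Ly6g6c and 0.60 for Ly6g6e. The largest was 2.31 for Ly6g6c and 0.93 for Ly6a, both in C3, and 1.42 for Ly6g6e in C2. The keratinocyte lists were detected in every mouse. The labels name no batch. Levels are CPM, UMIs per 1000000 UMIs of the mouse or of its cells of a stage, and fold changes are from edgeR with TMM scaling, each with its SE. The mouse is the replicate throughout.

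Cells were ordered by their own Krt5 and Krtdap UMIs. A cell was placed in the Krt5 stage or the Krtdap stage where one of the log10(1 + UMI) values exceeded the other by more than 0.3. Other cells with a UMI of either gene were placed in the middle stage, and cells with neither gene had no stage. A single UMI of one gene and none of the other was enough to set a stage. In controls 62.2% ± 11.0 (SD, n = 6) of the cells of a mouse were in the Krt5 stage and 29.8% ± 9.01 in the Krtdap stage. In ESCC these shares were 84.8% ± 4.44 and 7.17% ± 6.05 (n = 3), and in EoE 12.1% ± 6.53 and 62.7% ± 8.90 (n = 4), with 21.1% of EoE cells holding neither gene. A whole-mouse level therefore mixes the share of cells of a stage with the RNA per cell, and these cannot be told apart without the levels within a stage.

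Ly6d, Lypd3, Ly6g6c and Ly6g6e rose along this axis in controls, while Ly6a fell. Of 4431 genes tested between the Krtdap and Krt5 stages of the same mice, 50.3% were called at an adjusted p of 0.05, so that a call of itself is no result about these genes, and 22.3% were called as higher. Ly6d had 1035 ± 99.0 CPM (SD, n = 6) in the Krt5 stage, 3415 ± 1015 in the middle stage and 5205 ± 706 in the Krtdap stage, and all 6 mice were higher in the last. The ranges of the first and last stage did not overlap (log2 fold change 2.42 ± 0.10, adjusted p = 7.6e-69, edgeR). Lypd3 took the same course, with 229 ± 94.9, 771 ± 351 and 1721 ± 345 CPM (log2 fold change 3.00 ± 0.12, adjusted p = 3.1e-65, edgeR).

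Ly6g6c in controls was found mostly at the end of the axis. Its level was 31.7 ± 34.7 CPM in the Krt5 stage, 231 ± 212 in the middle stage and 1740 ± 928 in the Krtdap stage (log2 fold change 5.79 ± 0.18, adjusted p = 1.1e-89, edgeR). In the Krtdap stage it had 3062 CPM in C1, 1038 in C2, 514 in C3, 2006 in C4, 1443 in C5 and 2375 in C6, so that control mice differed widely. Ly6g6e rose from 33.0 ± 9.7 to 382 ± 93.2 CPM (log2 fold change 3.53 ± 0.25, adjusted p = 4.9e-33, edgeR) and ranged only from 286 to 514 CPM in that stage. In 5 finer bins of the axis, drawn after the values were seen, control Ly6g6c had 343 ± 418 CPM in the fourth bin and 2142 ± 1031 in the last. Ly6d had already reached 4372 ± 1190 CPM in the fourth bin, against 5514 ± 606 in the last.

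Ly6a was the member that went down. It had 633 ± 58.6 CPM in the Krt5 stage and 300.04 ± 177 in the Krtdap stage, lower in 6 of 6 mice (log2 fold change -0.98 ± 0.14, adjusted p = 6.6e-10, edgeR), although C2 kept 623 CPM in the Krtdap stage. Ly6e was lower in 6 of 6 mice too, by less, at 844 ± 117 and 619 ± 116 CPM (log2 fold change -0.31 ± 0.12, adjusted p = 0.020, edgeR). That call was lost without C1, C2, C4 or C6 (adjusted p up to 0.35), in DESeq2 (adjusted p = 0.11), with a wider middle stage (0.084), with every cell thinned to 300 UMIs (0.38) and without mouse as a block (0.063).

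**Figure D1:**
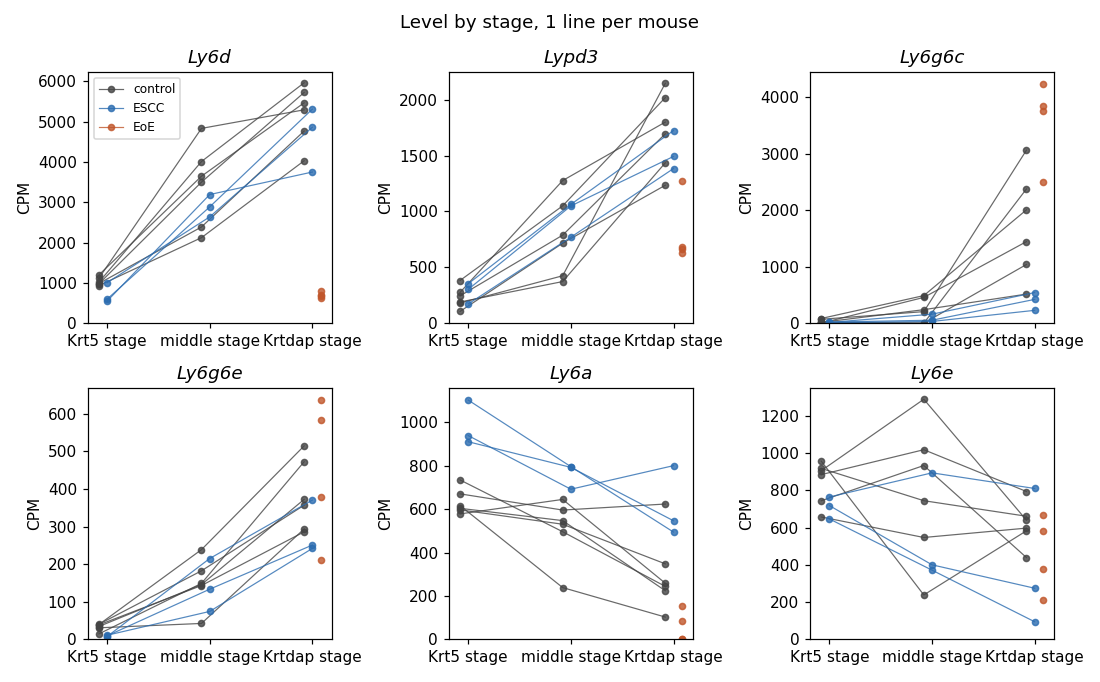
CPM of each member (y axis) in the Krt5, middle and Krtdap stages (x axis), with 1 line per mouse for control and ESCC, and points for EoE mice in the Krtdap stage, the only stage with enough EoE cells. Ly6d, Lypd3, Ly6g6c and Ly6g6e are higher in the Krtdap than in the Krt5 stage of every control and ESCC mouse. At the last stage ESCC is low for Ly6g6c, and EoE is low for Ly6d.

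The same 4 genes rose between the stages in ESCC, where 20.9% of 7438 genes were called and 9.67% as higher. The log2 fold change was 2.89 ± 0.16 for Ly6d, 2.68 ± 0.17 for Lypd3, 5.09 ± 0.30 for Ly6g6c and 5.03 ± 0.34 for Ly6g6e, with adjusted p from 4.4e-72 to 2.3e-46 in edgeR and every mouse higher in the Krtdap stage. Ly6a was lower in 3 of 3 mice (-0.55 ± 0.17, adjusted p = 0.0093, edgeR), but not past the threshold without 8M or 17M (adjusted p = 0.27 and 0.26), in DESeq2 (0.17), with thinned cells (0.13) or without mouse as a block (0.13). Ly6e gave -0.80 ± 0.19 (adjusted p = 3.4e-04, edgeR), with 810 CPM in the Krtdap stage of 8M, 275 in that of 17F and 94.6 in that of 17M. Its call was lost without 17F or 17M, in DESeq2 (adjusted p = 0.0503), with thinned cells (0.66) and without mouse as a block (0.44). The step between the stages was not called as different in ESCC and control for any member (2 of the 6 had an unadjusted p under 0.05 in edgeR), and 1.2% of 4825 genes were called in that test. The nearest was Ly6g6e, with an interaction of 1.41 ± 0.44 (95% interval 0.54 to 2.28, adjusted p = 0.10, edgeR). Without 8M, Ly6e (-1.50, adjusted p = 3.8e-04) and Ly6d (0.67, adjusted p = 0.030) passed this test.

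The members that rose with differentiation were lower in whole ESCC mice, and Ly6a was higher. Of 5863 genes tested in each whole-mouse comparison, 34.4% were called in ESCC against control, 18.0% as higher and 16.4% as lower. Over all genes the median log2 fold change was 0.01 with TMM scaling, -0.17 without it and 0.12 with DESeq2 size factors. Changes are to be read relative to that shift.

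Ly6a had 838 CPM in 8M, 908 in 17F and 1035 in 17M, above every control (436 to 653 CPM). The log2 fold change was 1.09 ± 0.19 (adjusted p = 2.9e-05, edgeR), and it was called under every alternative and without any single mouse.

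Ly6g6c had 116 CPM in 8M, 19.0 in 17F and 41.5 in 17M, and 153 to 1299 CPM in the controls. The groups did not overlap (log2 fold change -3.51 ± 0.50, adjusted p = 1.6e-06, edgeR). Ly6g6e had 86.1, 32.9 and 29.6 CPM in the same mice, below 142 to 181 CPM in the controls (-1.57 ± 0.26, adjusted p = 1.8e-05, edgeR). Both calls stood without any single mouse. Ly6d had 1797, 952 and 1102 CPM, again below every control (2071 to 3439 CPM). Its change of -0.89 ± 0.24 (adjusted p = 0.0044, edgeR) was not called without 17F or 17M (adjusted p = 0.12 and 0.077). Lypd3, at 427, 431 and 506 CPM, overlapped C2 and C3 (525 and 423 CPM). Its change of -0.70 ± 0.24 (adjusted p = 0.021, edgeR) was lost in DESeq2 (adjusted p = 0.062) and without any of 6 of the 9 mice, namely C1, C4, C5, C6, 17F or 17M.

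Within stages, most of these differences were not called. In the Krtdap stage, where 25.2% of 2220 genes were called, Ly6d had 4638 ± 803 CPM in ESCC and 5205 ± 706 in controls (log2 fold change 0.16, 95% interval -0.32 to 0.64), Lypd3 1533 ± 174 and 1721 ± 345 CPM (0.13, interval -0.35 to 0.61) and Ly6g6e 288 ± 71.7 and 382 ± 93.2 CPM (0.04, interval -0.44 to 0.52). None of these was called, and the signs of all 3 turned without TMM scaling. In CPM, 2 of 3 ESCC mice lay below every control for Ly6g6e, 1 for Ly6d and 0 for Lypd3. Ly6g6c stayed low. It had 541 CPM in 8M, 227 in 17F and 420 in 17M, so that 17F and 17M lay below every control and 8M just above C3 (log2 fold change -1.82 ± 0.37, adjusted p = 2.7e-04, edgeR). In the 5 finer bins, Ly6g6c of ESCC had 368 ± 246 CPM in the fourth bin, beside 343 ± 418 in controls, and 487 ± 185 in the last, beside 2142 ± 1031. Markers of superficial cells moved with it: 4 of the 6 tested were lower in the Krtdap stage of ESCC and none was higher. Of all 2220 genes, 181 were called as lower and 379 as higher there. The marker list includes Krtdap, which also sets the stage. The part of these markers in the result was not tested.

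Ly6a was higher in ESCC in each stage tested. Its Krt5 stage had 910 CPM in 8M, 938 in 17F and 1102 in 17M, above every control (578 to 734 CPM, log2 fold change 0.87 ± 0.16, adjusted p = 2.0e-04, edgeR), a stage in which 29.1% of 4344 genes were called. In the Krtdap stage it had 613 ± 164 CPM against 300.04 ± 177 in controls (1.32 ± 0.28, adjusted p = 3.3e-04, edgeR), where 17F alone lay above all controls, C2 being high. Ly6a was the only member called in the Krt5 stage. Ly6d had 714 ± 251 against 1035 ± 99.0 CPM there (-0.30, 95% interval -0.68 to 0.09), Lypd3 276 ± 93.5 against 229 ± 94.9 CPM (0.45, interval -0.03 to 0.94), and without 8M both were called (-0.65 and 0.66), as were Ly6d without TMM scaling (-0.55, adjusted p = 0.030) and Lypd3 without C1 (0.68, adjusted p = 0.046). Ly6g6e passed no filter on low counts in that stage, with 9.32 ± 1.70 CPM in ESCC and 33.0 ± 9.65 in controls. In CPM, 3 of 3 ESCC mice lay below every control for Ly6g6e there, 2 for Ly6d and 0 for Lypd3. Ly6e did not differ by a call in either stage, and without 8M its change in the Krtdap stage became -1.44 (adjusted p = 0.0014).

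**Figure D2:**
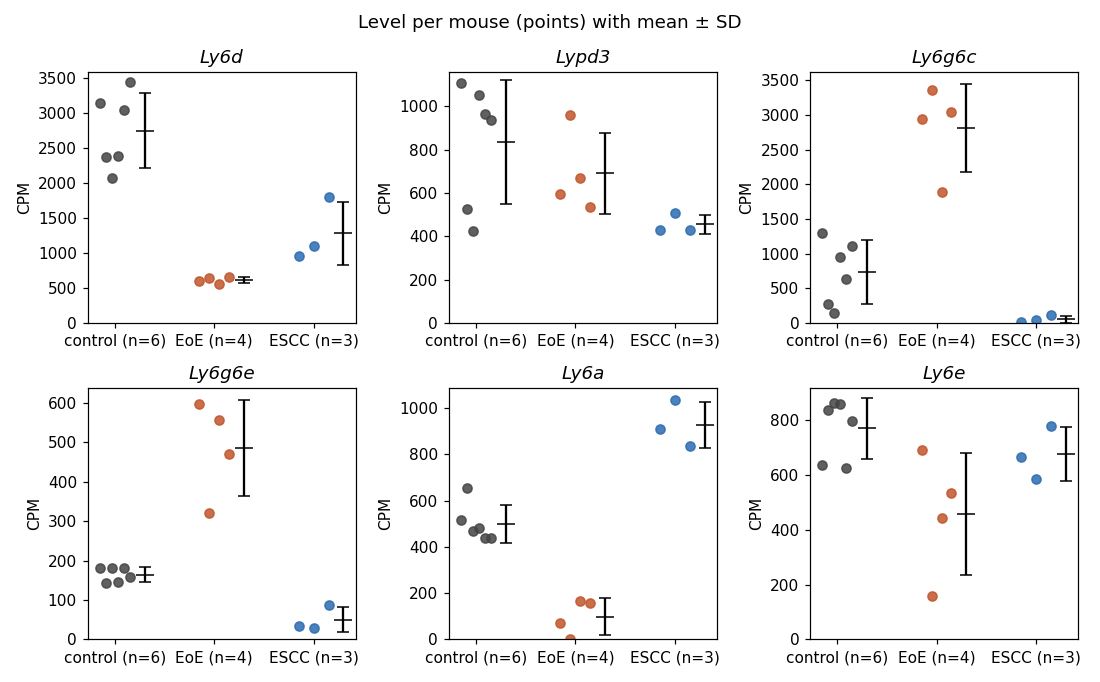
CPM of each member (y axis) in every control, EoE and ESCC mouse (points), with mean ± SD beside them. EoE and ESCC mice lie on opposite sides of the controls for Ly6g6c, Ly6g6e and Ly6a, and both lie below them for Ly6d.

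Mice with EoE differed from controls in the opposite direction for 3 members. In that comparison 34.4% of 5863 genes were called, 9.5% as higher and 24.9% as lower, and the median log2 fold change over all genes was -0.74 (-0.60 without TMM and -0.97 with DESeq2 size factors). A change of about that size is at the level of the whole table. The EoE values rest on 97975 UMIs in all, and 1 UMI in E11 is worth 160.1 CPM.

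Ly6d had 659 CPM in E9, 597 in E10, 641 in E11 and 557 in E12, all below the lowest control at 2071 CPM (log2 fold change -2.35 ± 0.29, adjusted p = 1.5e-07, edgeR). The 4 mice differed little from each other. Ly6a had 157, 71.6, 0 and 167 CPM, from 11 UMIs in all, against 436 to 653 CPM in controls (-2.30 ± 0.37, adjusted p = 1.5e-05, edgeR). Its 0 in E11 allows up to 480.4 CPM (3 UMIs of 6245), within the control range. Both genes remained called under every alternative and without any single mouse.

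Ly6g6c and Ly6g6e were higher in whole EoE mice. Ly6g6c had 3045, 2935, 3363 and 1893 CPM in E9, E10, E11 and E12, above every control (at most 1299 CPM, log2 fold change 1.65 ± 0.41, adjusted p = 0.0025, edgeR). When all 1500 deposited EoE cells were used, its mean was 1060 ± 559 CPM beside 736 ± 462 in controls, and the change was 0.61 (adjusted p = 0.27). In DESeq2 its adjusted p was 0.054. Ly6g6e had 471, 597, 320 and 557 CPM, above every control (at most 181 CPM, 1.504 ± 0.34, adjusted p = 0.0010, edgeR). Ly6e (458 ± 223 CPM against 771 ± 111) changed by -0.69 ± 0.27 (adjusted p = 0.049, edgeR), which is near the median of all genes and was not called in 8 of 10 fits that left out 1 mouse, without TMM (adjusted p = 0.10), with all deposited cells (0.095) or with only both groups in the fit (0.12). Lypd3 had 690 ± 189 CPM against 835 ± 287 (-0.63 ± 0.29, adjusted p = 0.095, edgeR). Its call depended on the setting, since it was called with all deposited cells (-1.03, adjusted p = 0.0017), in DESeq2 (-0.84, adjusted p = 0.023), with its size factors (-0.85), without a filter on low counts (-0.99) and without C2 or C3. The median over all genes was -0.74 in the main fit, -0.93 in DESeq2, -0.97 with its size factors and -1.23 without a filter. Lypd3 fell less than that in each of these fits. With all deposited cells the median was -0.31, and Lypd3 fell further.

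Within the Krtdap stage of EoE, 40.8% of 2220 genes were called, 26.4% as lower. Ly6d and Lypd3 were further below controls than in whole mice, while the differences of Ly6g6c and Ly6g6e were smaller. Ly6d had 793, 700, 635 and 683 CPM in E9, E10, E11 and E12, while the lowest control had 4027 (log2 fold change -3.08 ± 0.30, adjusted p = 2.6e-10, edgeR). Lypd3 had 626, 668, 1270 and 683 CPM, below 1234 in the lowest control except in E11 (-1.50 ± 0.29, adjusted p = 7.3e-05, edgeR). Ly6a had 4 UMIs in all (58.8 ± 73.4 CPM against 300.04 ± 177, -2.61 ± 0.66, adjusted p = 0.0020, edgeR). Ly6g6c had 3838, 3754, 4235 and 2503 CPM, of which 3 exceeded every control (0.73 ± 0.32, 95% interval 0.11 to 1.35, adjusted p = 0.063, edgeR). It was called without TMM scaling (0.91, adjusted p = 0.019) and without C1, C4, C6 or E12. Ly6g6e had 453 ± 195 CPM against 382 ± 93.2 (0.35, interval -0.24 to 0.95) and Ly6e 461 ± 206 against 619 ± 116 (-0.41, interval -1.19 to 0.38), neither called. Thus Ly6d and Lypd3 were low, and Ly6g6c not lower, in cells of the stage where all 3 are high in controls. The median cell of this stage had 646 UMIs in EoE and 1206.5 in controls. With every cell reduced to 300 UMIs, a UMI of Ly6d was seen in 17.6% of 85 EoE cells and 74.6% of 484 control cells, one of Ly6g6c in 44.7% and 33.7% (36.5% and 97.3%, and 68.2% and 53.5%, before thinning). For Ly6g6c, 0.92% of control Krt5-stage cells, which are low in the gene, held a UMI after thinning.

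The Krt5 stage of EoE held 20 cells and 8827 UMIs, among them 2 UMIs of Ly6d, 6 of Ly6e, 3 of Ly6a, 4 of Ly6g6c, 3 of Ly6g6e and 0 of Lypd3. The edgeR test made calls there on simulated counts without any change, so no call is read from that stage.

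**Figure D3:**
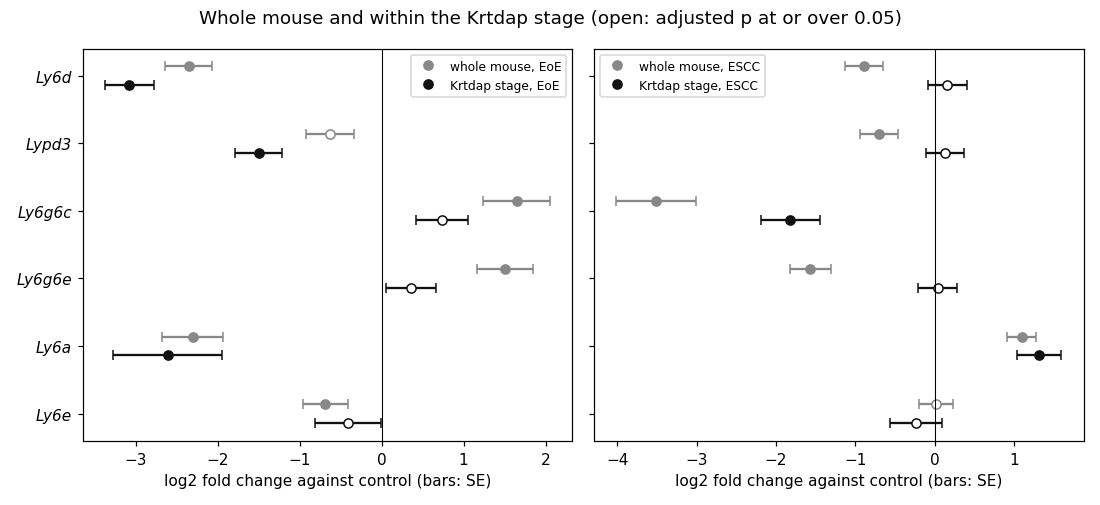
Log2 fold change (x axis, bars SE) of each member against control for EoE (left) and ESCC (right), in whole mice (grey) and within the Krtdap stage (black), with open points where the adjusted p was at or over 0.05. For ESCC the black points of Ly6d, Lypd3 and Ly6g6e sit near 0, and for EoE those of Ly6d and Lypd3 lie further below 0 than the grey ones.

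**Figure D4:**
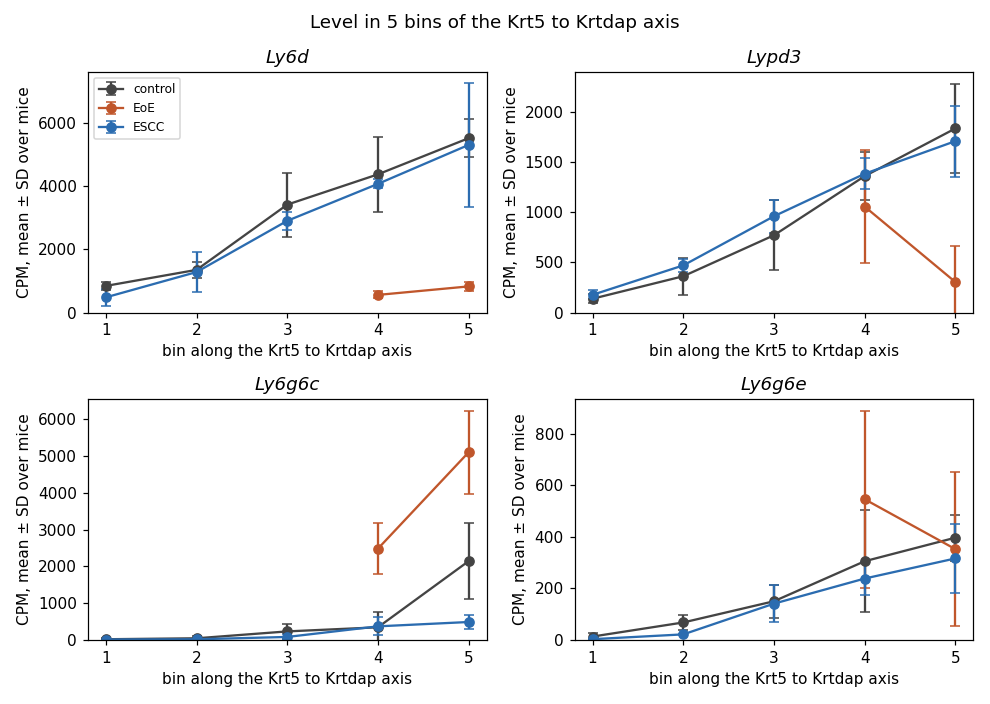
CPM (y axis, mean ± SD over mice) in 5 bins from Krt5-high to Krtdap-high cells (x axis) for 4 members in control, ESCC and EoE, the last only in bins 4 and 5, with bars cut at 0. Ly6d, Lypd3 and Ly6g6e rise toward Krtdap-high cells in ESCC as in control, ESCC stays low in bin 5 for Ly6g6c, and EoE is low for Ly6d.

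Set against ESCC directly, EoE was lower in Ly6d (log2 fold change -1.46 ± 0.31, adjusted p = 4.2e-04, edgeR) and Ly6a (-3.40 ± 0.36, adjusted p = 7.3e-09, edgeR) and higher in Ly6g6c (5.16 ± 0.57, adjusted p = 1.3e-08, edgeR) and Ly6g6e (3.07 ± 0.38, adjusted p = 1.2e-07, edgeR), where 41.7% of genes were called. The groups did not overlap for these 4 genes. Nor did they for Lypd3, with 534 to 961 CPM in EoE and 427 to 506 in ESCC, but its fold change was 0.077 (95% interval -0.56 to 0.71) and its sign turned under 5 other settings. The share of all genes without overlap was not counted, here or in the other comparisons. Separation of itself is therefore no result about these genes. Ly6e gave -0.70 ± 0.29 (adjusted p = 0.053, edgeR). It was called in DESeq2 (-1.04, adjusted p = 0.0021), with DESeq2 size factors (-1.05), without a filter (-1.05), with only both groups in the fit, with non-epithelial calls kept, and without 17M or E10. The median over all genes was -0.80 in the main fit, -1.12 in DESeq2, -1.15 with its size factors and -1.48 without a filter. Ly6e fell no further than that in these fits. With only both groups in the fit the median was -0.14 and Ly6e was -0.83. Of 5863 genes in the main fit, 685 were called as higher and 1760 as lower. Age gave no call for any member among controls, where 5 of 5149 genes were called (0.0971%), and no interaction with EoE, where 2 of 4198 were (0.0476%). The interaction set the young EoE mice beside young controls that were older than they were. DESeq2 called no member in either test. Unadjusted p was under 0.05 for none of the 6 among controls and for 1 of 6 in the interaction with EoE, Ly6e (-1.42 ± 0.63, p = 0.029, adjusted p = 0.59, edgeR). The intervals were wide. For Ly6g6c, old minus young was -0.52 (95% interval -1.42 to 0.37).

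Within ESCC, the 4 genes that rose along the axis were also higher in cells with keratins of other states. Cells with at least 10 Krt16 UMIs per 10000 numbered 89 in 17F and 196 in 17M but 5 in 8M. Krt16 is a keratin of activated and hyperproliferative epithelium. In these cells Ly6d was 2548, 2394 and 2870 CPM in 17F, 17M and 8M, against 543, 417 and 1777 in the other cells (1.75 ± 0.43, adjusted p = 0.0023, edgeR). Lypd3 (1.59 ± 0.38), Ly6g6c (2.15 ± 0.35) and Ly6g6e (1.91 ± 0.37) were higher too, in 3 of 3 mice, where 4.71% of 8551 genes were called and 2.95% as higher. All 4 calls were lost without 17F or without 17M, in fits that keep 8M with its 5 cells. Without 8M, which leaves 2 mice as well, all 4 were called (adjusted p of 6.8e-12 or less, edgeR). Ly6e (-0.45, adjusted p = 0.68, edgeR) was called with a minimum of 30 UMIs (-0.35, adjusted p = 0.045). Cells with Krt1 or Krt10, keratins of cornifying epithelium, were 27, 31 and 21 in 17F, 17M and 8M. Ly6d had 2827, 2796 and 3950 CPM there against 804, 1002 and 1625 in the other cells (1.58 ± 0.14, adjusted p = 2.6e-10, edgeR), and Lypd3 rose by 1.51 ± 0.15 (adjusted p = 5.8e-09, edgeR). Both stood without any single mouse. Ly6g6c (1.65 ± 0.34) and Ly6g6e (1.89 ± 0.34) were called but neither without 8M nor with a minimum of 30 UMIs per 10000 (1.41, adjusted p = 0.057, and 1.07, adjusted p = 0.35), and Ly6a (-0.54 ± 0.16) and Ly6e (-0.59 ± 0.17) were lower but not called without 17F or 8M. Here 4.82% of 7655 genes were called.

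Of 43 other listed genes of the family, 31 are in the files and 6 passed the filter on low counts in whole mice. In ESCC, Lypd5 (-4.65 ± 0.48), the secreted Slurp1 (-4.07 ± 0.80), Lypd6 (-1.72 ± 0.29) and Pinlyp (-0.81 ± 0.27) were lower and Ly6c1 (3.39 ± 0.39) was higher, with adjusted p from 3.0e-09 to 0.017 in edgeR. The median of the 6 was -1.58, beside 0.01 over all genes. Between the stages of control, Lypd5 (6.08 ± 0.37), Slurp1 (3.94 ± 0.81) and Pinlyp (3.43 ± 0.32) rose, 3 of 4 tested, where 22.3% of all genes were called as higher. None of the 6 was called in EoE against control by edgeR or DESeq2, and 1, Slurp2, had an unadjusted p under 0.05 in edgeR (2.18 ± 1.05, adjusted p = 0.10). All EoE mice together held 20 UMIs of Lypd5, 7 of Slurp1, 6 of Slurp2, 4 of Pinlyp, 3 of Lypd6 and 0 of Ly6c1. At such counts the lack of a call does not show that these genes were unchanged. Within the Krtdap stage of EoE, where 2 were tested, Pinlyp was lower (-2.89 ± 0.75, adjusted p = 0.0023, edgeR). Lypd5 fell within the Krtdap stage of ESCC too (-2.64 ± 0.46, adjusted p = 2.2e-05, edgeR). Ly6c1 had 339 UMIs in ESCC, 12 in control and 0 in EoE. Among 8 genes of ligands and partners in the files, such as the urokinase receptor and its ligands, 2 were tested. Lgals3, a galectin that binds Lypd3, rose along the axis in controls (1.40 ± 0.12) and was lower in EoE (-3.78 ± 0.49, adjusted p = 4.1e-07, edgeR) and ESCC (-0.59 ± 0.22, adjusted p = 0.034, edgeR). Serpinb2, an inhibitor of urokinase, rose along the axis (1.35 ± 0.23) and was lower in ESCC (-2.14 ± 0.33, adjusted p = 4.8e-06, edgeR).

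GPI anchor genes moved in both directions. Of 29 in the files 16 were tested. In ESCC 1 was higher (Pigp, 0.82 ± 0.21) and 2 were lower (Pigf, -1.20 ± 0.29, and Pigu, -0.82 ± 0.23), beside 18.0% and 16.4% of all genes. In EoE 3 were higher and 4 lower, beside 9.5% and 24.9% of all genes. Their medians were -0.25 in ESCC and -0.42 in EoE, beside 0.01 and -0.74 over all genes. Of 25 interferon-related genes 9 were tested. In ESCC 6 were higher and none lower, beside 18.0% and 16.4% of all genes. The smallest p-values were those of H2-K1 (3.198 ± 0.21), Ifitm3 (2.36 ± 0.22) and B2m (3.79 ± 0.35). In EoE none was higher and 4 were lower, beside 9.5% and 24.9% of all genes, among them Ifitm3 (-3.45 ± 0.61) and H2-K1 (-1.47 ± 0.50). The medians were 1.35 in ESCC and -3.45 in EoE, beside 0.01 and -0.74 over all genes. Ly6a was higher in ESCC and lower in EoE as well. Ly6e, the other member named above as interferon-inducible, was not called in ESCC (0.02, adjusted p = 0.97, edgeR). In EoE it changed by -0.69, near the median of all genes. A part of interferon in either gene was not tested. Summed immune markers (18 of 18 in the files) were 244 to 367 CPM in ESCC, 34.6 to 83.4 in controls and 0 in EoE, and summed endothelial markers were 2.88 to 8.94, 0 to 21.04 and 71.6 to 278 CPM (13 UMIs in EoE). Their part in the Ly6a and Ly6e results was not tested. Markers of eosinophils and mast cells (5 of 9 in the files) had 0 UMIs in every group.

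Across 27 sums of a mouse and a stage in control and ESCC, which share mice and differ in depth, the pattern of each member was compared with 7393 genes by Spearman's rho on log2(CPM + 10), as a description. Nearest to Lypd3 were the desmosome genes Dsp (0.97) and Dsc2 (0.93) with Dmkn (0.94), and to Ly6d Perp (0.94), a desmosome-associated gene, Dmkn (0.93) and S100a16 (0.93). Nearest to Ly6g6c were Alox12b (0.94), a lipoxygenase of the barrier, the cornified envelope gene Cnfn (0.93) and Trex2 (0.91), and to Ly6g6e Krt13 (0.95), the keratin of suprabasal esophageal cells, Lgals3 (0.94) and Capns2 (0.94). Ly6a was nearest to the broadly expressed U2af2 (0.93), Eif4a2 (0.93) and Rpl7a (0.91). Ly6e had no near neighbor, the highest rho being 0.76 with Myc. Among the members, the 4 that rise gave rho from 0.76 to 0.89 with each other.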

How the data were processed

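Single cells of peeled esophageal epithelium were counted by inDrop in 22 libraries of 13 mice. The deposited values are whole-number UMI counts per gene and cell, without normalization. Per the labels and methods, the authors used UMI-tools 1.0.0, STAR 2.7.3 on GRCm38 and featureCounts, filtered cells and drew 1500 per condition. The limits of genes and UMIs they state are those used here, and 9.6% of the deposited EoE cells met them. The total count per mouse was 6245 to 2095454 UMIs, and floors cover counting error only.

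UMIs were summed per mouse, or per mouse and stage (sums under 1000 UMIs left out), and tested with the quasi-likelihood method of edgeR 4.0.16 under R 4.3.3, after TMM scaling and the filterByExpr filter, with p-values adjusted by Benjamini-Hochberg over all genes tested (threshold 0.05). Whole-mouse and within-stage fits held the 3 groups together. Comparisons of stages or cell sets had mouse as a block, since both sums come from the same animal. DESeq2 1.42.0 was an alternative. Other alternatives were all deposited cells, other scalings, no filter, a wider strip (0.6), cells thinned to 300 UMIs, a minimum of 30 UMIs per 10000 and leaving out each mouse. Doublets were not called. Simulated counts were run for EoE and ESCC against control in whole mice, the stages of control, and the Krt5 stages of ESCC and EoE. The other tests, among them those of the Krtdap stage against control, were not tried on them. Named genes were the members in every comparison, other family and partner genes past the threshold in EoE, ESCC or the control stages, up to 3 of the other lists by p in ESCC, and the 3 nearest genes per member. The members and lists were chosen with earlier results of these data known.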

Additional observations from a re-analysis of the deposited data

Results flagged for a closer look

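Of 12 sets of values (6 members in the control and EoE groups), 1 held a mouse far from the others, and chance alone gives about 1 in 20. Control mouse C2 had 653 CPM of Ly6a, while the other 5 controls lay between 436 and 514 CPM. No member passed a test of a difference in effect between ages or between ESCC and control stages with all mice in the fit, while Ly6e and Ly6d passed the stage test without 8M.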

How the results depend on the processing

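Member fold changes kept their direction and their side of the threshold in 256 of 300 values from other settings and in 387 of 459 from leaving out 1 mouse. The 300 include fits with scaled Krt5 and Krtdap, which could hardly differ from the main fits. Calls that changed are given beside the results. The other values are mostly of small changes that were never called. In ESCC against control, Ly6e (0.02) was -0.17 without TMM and -0.0055 with only the 2 groups in the fit, and -0.14 to 0.11 without 1 mouse. In the Krt5 stage Ly6e (-0.01) was 0.021 with all deposited cells and -0.087 to 0.077 without 1 mouse. In the Krtdap stage without TMM, Ly6d was -0.17, Ly6g6e -0.27 and Lypd3 -0.18, with thinned cells Ly6d was -0.31 and Lypd3 -0.39, and with all deposited cells Ly6g6e was -0.085. Without 1 mouse these ran from -0.047 to 0.24 for Ly6d, -0.20 to 0.10 for Ly6g6e, -0.062 to 0.23 for Lypd3 and -1.44 to 0.090 for Ly6e. Between EoE and ESCC, Lypd3 (0.08) was -0.28 with all deposited cells, -0.26 in DESeq2 and with its size factors (-0.263), -0.29 without a filter and -0.041 with 2 groups, and -0.11 to 0.078 without 1 mouse. The causes were not tested.

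Counts of all genes called moved as follows. With all deposited cells, 3030 genes were called in EoE against control and 1459 in its Krt5 stage, and the age interaction gave 1. With 2 groups in the fit, EoE against ESCC gave 677 of only 880 genes tested (76.9%, beside 41.7% of 5863). DESeq2 called 800 between the stages of ESCC and 0 for the age interaction (2 by edgeR). Thinned cells, with fewer UMIs, gave 490 and 125 between the stages of control and ESCC, 448 and 105 in the Krt5 and Krtdap stages of ESCC, and 95 and 140 in those of EoE. They also left fewer genes to test, 211 in place of 2220 in the Krtdap stage, where the share called was higher (49.8% in ESCC and 66.4% in EoE, beside 25.2% and 40.8%). It was lower between the stages of control and ESCC (42.7% and 14.7%, beside 50.3% and 20.9%) and in the Krt5 stages (19.3% and 4.09%, beside 29.1% and 8.49%). Without TMM, the Krt5 stage of EoE gave 109 and Krt16 cells 848. A minimum of 30 UMIs gave 1175 for Krt16 and 241 for Krt1 and Krt10 cells. Without 1 mouse the ranges were 1112 (without E10) to 2013 for EoE, 1571 to 2515 for EoE against ESCC, 0 to 8 for age, 0 to 10 for its interaction, 405 to 1222 between the stages of ESCC, 39 to 99 for their interaction, 802 to 1497 and 141 to 397 in the Krt5 stages of ESCC and EoE, 3 to 1386 for Krt16 and 106 to 367 for Krt1 and Krt10 cells. Scaling Krt5 and Krtdap to 10000 UMIs per cell changed the stage of 0 sums.

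Stages of 1 mouse are paired by the animal. Leaving out the replicate block gave 1452 calls between the stages of control, in place of 2228, from 2820 genes tested in place of 4431 (51.5% and 50.3% called), and ended the calls of Ly6e in control and of Ly6e and Ly6a in ESCC. No paired analysis was possible because the mice of different groups are different animals, for all comparisons between groups. The EoE values are limited by depth, at 6245 UMIs in E11.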
